A study of Homo sapiens with 10 samples.

Results

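The insulin-like growth factor (IGF) axis was followed here through 10 genes of the 24050 listed in the count tables: the ligands IGF1 and IGF2, the receptors IGF1R and IGF2R, and the binding proteins IGFBP2, IGFBP3, IGFBP4, IGFBP5, IGFBP6 and IGFBP7. They were taken as a list by symbol and family, and all 10 were found in both tables. RNA was measured by mRNA sequencing in 10 libraries. Of these, 3 came from wild-type (WT) HEK293T cells, a human embryonic kidney line, and 3 from HEK293T cells in which the zinc finger gene ZNF274 was knocked out (KO). Another 2 came from WT and 2 from ZNF274 KO neural progenitor cells (NPCs), which were differentiated through embryoid bodies from H1 human embryonic stem cells. No group received a treatment. The KO was made with CRISPR-Cas9 and a pair of guides flanking ZNF274. HEK293T KO lines were grown from sorted single cells and stem cell KO lines from picked colonies, and the labels do not say which clone or culture each library came from. For NPCs the study speaks of separate parental lines, without tying a library to a line. P values therefore measure the spread between these libraries, which may in part be technical.

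IGF1 and IGF2 are small secreted growth factors. Both signal through IGF1R, a receptor tyrosine kinase, which passes the signal to the adaptor proteins IRS and SHC and on to the PI3K-AKT and MAPK branches. IGF2R, also the mannose 6-phosphate receptor, lacks a kinase and delivers IGF2 to lysosomes for degradation. The IGFBPs carry IGFs outside the cell and limit or prolong their action, IGFBP7 with low affinity, and proteases such as PAPPA free the ligand by cutting them. IGF2 is an imprinted gene expressed mainly from the paternal copy, next to the maternally expressed RNA H19, and is abundant in fetal mesenchyme. In the nervous system IGF signaling is known for promoting survival and proliferation of progenitors.

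The promoters of the receptors and of IGFBP4 are shown because IGF2R and IGFBP4 were up-regulated in KO NPCs while IGF1R was not. Windows of 250 bases before the gene start were taken from RefSeq on GRCh38.p14, where 8 of the 10 members had an entry (not IGF2 and IGFBP7). Capitals mark the GC box GGGCGG and the TATA box TATAAA, searched on both strands and with overlapping matches counted.
IGF2R: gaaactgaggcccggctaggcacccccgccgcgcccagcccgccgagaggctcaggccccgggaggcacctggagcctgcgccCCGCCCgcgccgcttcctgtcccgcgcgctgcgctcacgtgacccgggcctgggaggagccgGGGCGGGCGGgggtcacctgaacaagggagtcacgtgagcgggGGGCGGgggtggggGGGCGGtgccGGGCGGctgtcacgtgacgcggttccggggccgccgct
IGF1R: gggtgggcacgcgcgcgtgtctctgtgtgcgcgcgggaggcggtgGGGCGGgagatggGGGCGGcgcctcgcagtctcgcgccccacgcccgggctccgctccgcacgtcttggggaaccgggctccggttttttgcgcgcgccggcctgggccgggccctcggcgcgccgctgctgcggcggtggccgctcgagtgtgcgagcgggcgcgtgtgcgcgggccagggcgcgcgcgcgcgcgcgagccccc
IGFBP4: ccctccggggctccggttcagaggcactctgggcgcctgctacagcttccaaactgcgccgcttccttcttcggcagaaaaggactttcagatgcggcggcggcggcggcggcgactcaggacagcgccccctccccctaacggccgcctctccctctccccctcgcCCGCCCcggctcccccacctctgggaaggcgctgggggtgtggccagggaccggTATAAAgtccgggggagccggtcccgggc
The IGF2R window (chr6:159968832-159969081, plus strand) had a GC content of 79.2%, 33 CpG and 6 GC boxes. The window of IGF1R (chr15:98648289-98648538, plus strand) had a GC content of 81.2%, 48 CpG and 2 GC boxes. For IGFBP4 (chr17:40443200-40443449, plus strand) the GC content was 71.6%, with 24 CpG, 1 GC box and 1 TATA box. Over all 35116 windows of this length the median was 58% GC and 11 CpG, 42.6% of windows held the GC box and 10.7% the TATA box. These matches describe the sequence only.

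Libraries held 21421013 to 32285876 counts on genes in HEK293T cells and 18621266 to 23035490 in NPCs. Levels are given as CPM, counts scaled to library size on the TMM scale of all 10 libraries, and 3 counts, taken as the floor, correspond to 0.0916 to 0.154 CPM. ZNF274 had 423 to 492 counts in HEK293T WT libraries and 491 and 496 in NPC WT libraries, and 0 in all 5 KO libraries, at least 138-fold and 170-fold lower. One HEK293T KO library, S18, stood apart. It had the highest CPM of the 6 HEK293T libraries in 28.0% of genes tested and for 6 of the 9 members tested. A gene was called when its adjusted P value (edgeR quasi-likelihood test, Benjamini-Hochberg over all genes tested) was below 0.05 and its fold change (FC) above 2.

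The first question was what the loss of ZNF274 did to the axis in NPCs. The ligand IGF2, the clearance receptor IGF2R and the binding proteins IGFBP4 and IGFBP7 were up-regulated in KO NPCs, by 110-, 2.37-, 3.88- and 15.6-fold. No member was down-regulated. These were 4 of 9 members tested, whereas 8.45% of the 20577 genes tested were called higher, 8.36% lower and 16.8% in either direction. An unadjusted p below 0.05 was reached by 6 of 9 members and 40.3% of all genes. The median log2 FC was 1.24 over the 9 members and -0.02 over all genes. Values of KO and WT libraries did not overlap, with KO higher, for 6 of 9 members and for 33.8% of all genes, or 67% in either direction. IGF1 had too few counts to be tested.

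**Figure D1:**
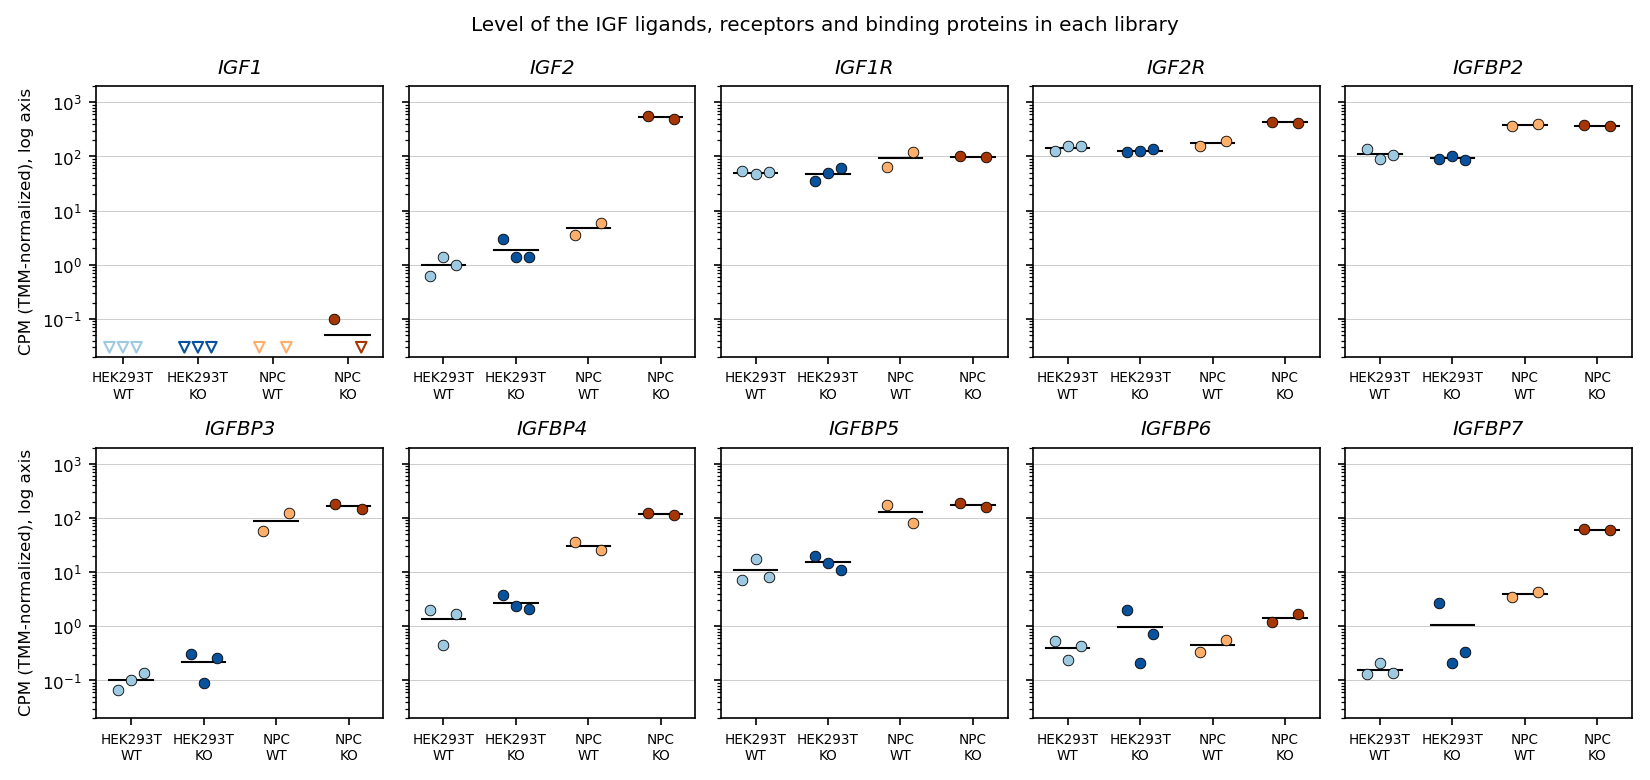
Level of each member in each library, as TMM-normalized CPM on a log axis. Points are libraries, horizontal bars are group means, and open triangles are libraries with 0 counts. IGF2 stood at 482 and 570 CPM in KO NPCs against 3.61 and 5.89 in WT NPCs, while IGFBP2 stayed between 362 and 401 CPM in all 4 NPC libraries.

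Of the ligands, IGF2 (ENSG00000167244, hg19 chr11:2150342-2179621, minus strand) had 76 and 115 counts in WT NPC libraries S3 and S5. In KO NPC libraries S1 and S2 it had 11464 and 10512 counts. Both KO libraries thus lay far above both WT libraries. The level was 526.1 ± 62.3 CPM (SD, n = 2) in KO and 4.75 ± 1.61 CPM (SD, n = 2) in WT, a log2 FC of 6.78 (standard error, SE, 0.25; adjusted p = 2.26e-05). Exons of IGF2 overlap the antisense gene IGF2-AS, which had at most 18 counts in any library. They also overlap INS-IGF2 on the same strand, for which no counts were analysed here. IGF1 had 2 counts in KO library S1 and 0 in every other library of both cell types, at or below the floor throughout.

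Of the receptors, IGF2R was called and IGF1R was not. IGF2R (ENSG00000197081, hg19 chr6:160390114-160534539) was at 159 and 195 CPM in the WT NPC libraries and at 441 and 407 CPM in the KO libraries. Both KO libraries exceeded both WT libraries. Its log2 FC was 1.24 (SE 0.13, adjusted p = 0.000807). IGF1R (ENSG00000140443, hg19 chr15:99191768-99507759) was at 62.8 CPM in WT library S3 and 122 CPM in S5, a 1.95-fold gap within the WT group, and at 101 and 96.4 CPM in the KO libraries. The KO values fell between the WT values, and the log2 FC of 0.08 (SE 0.28, adjusted p = 0.862) turned to -0.32 without S3 and 0.63 without S5.

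Among the binding proteins, IGFBP7 (ENSG00000163453, hg19 chr4:57896939-57976551), also a component of the extracellular matrix, had the largest FC. Its level was 3.47 and 4.30 CPM in WT NPC libraries and 63.4 and 58.9 CPM in KO libraries, a log2 FC of 3.96 (SE 0.18, adjusted p = 3.46e-05). The WT and KO libraries were far apart and tight within each group. Its exons overlap POLR2B on the opposite strand, which had a log2 FC of 0.14 (adjusted p = 0.382), and IGFBP7-AS1, with a log2 FC of 0.87 (adjusted p = 0.712).

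IGFBP4 (ENSG00000141753, hg19 chr17:38599702-38613977), which mainly restrains IGF action and is the best-known substrate of PAPPA, was at 36.1 and 25.4 CPM in WT NPCs. In KO NPCs it was at 126 and 115 CPM. The groups did not overlap, and the log2 FC was 1.96 (SE 0.18, adjusted p = 0.000447).

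The remaining binding proteins were not called in NPCs. IGFBP2, abundant in the developing brain, was at 369 and 401 CPM in WT and 374 and 362 CPM in KO, a log2 FC of -0.08 (SE 0.10, adjusted p = 0.612). The WT and KO values of IGFBP2 overlapped. IGFBP3, the main IGF carrier of serum, was at 58.1 and 121 CPM in WT and 183 and 148 CPM in KO, with a log2 FC of 0.87 (SE 0.31, adjusted p = 0.0790). The KO libraries lay above both WT libraries, but the WT libraries differed 2.08-fold from each other, and the gene was called when WT library S5 was left out (log2 FC 1.49).

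IGFBP5, which binds matrix and lies 7.67 kb from IGFBP2 on chromosome 2, was at 175 and 79.9 CPM in WT and 192 and 156 CPM in KO, and the groups overlapped. Its log2 FC of 0.44 (SE 0.32, adjusted p = 0.361) became 1.11, and was called, without WT library S3, and -0.03 without S5. IGFBP6, which prefers IGF2 over IGF1, had few counts, 7 and 11 in WT and 24 and 37 in KO libraries. This was a log2 FC of 1.67 (SE 0.56, adjusted p = 0.0650), called only without S5 among the alternatives tried (log2 FC 2.08). IGFBP3, IGFBP5 and IGFBP6 thus each gained a call when 1 WT library was left out.

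**Figure D2:**
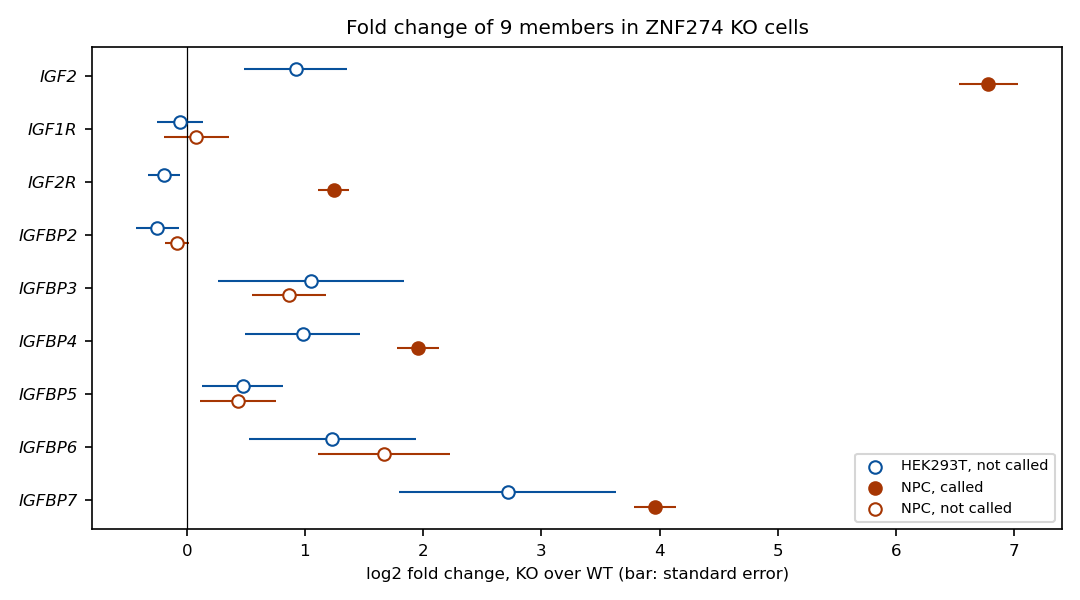
Log2 fold change of the 9 members tested, KO over WT, in HEK293T cells (blue) and NPCs (red), with bars for the standard error; filled points were called. The 4 filled points are IGF2, IGF2R, IGFBP4 and IGFBP7 in NPCs, and no HEK293T point is filled.

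Marker genes of several cell types moved with the genotype in NPCs. WT NPC libraries carried the neural progenitor genes NES, FABP7, SOX2 and PAX6, the filament nestin, a lipid carrier and a pair of transcription factors. In KO NPCs 7 of 9 progenitor markers tested were lower and 0 higher. SOX2 fell from 223.5 to 17.2 CPM and FABP7 from 284.3 to 2.79 CPM. SOX1 had 154 and 989 counts in WT and 1 and 2 in KO libraries. HES5 was near 0 in both genotypes, with 6 and 4 counts in WT and 0 in both KO libraries, and was not called (adjusted p = 0.0824). NES remained at 3143 and 3205 CPM, so that the summed level of the list was 2894 to 3849 CPM in WT and 3238 to 3266 CPM in KO. Of 6 neuron markers, 1 was higher and 2 were lower (1043 to 1135 CPM summed in WT, 158 to 202 in KO, mostly from MAP2).

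Markers of other lineages were higher in the same KO libraries. Of fibroblast and mesenchyme markers 5 of 10 were higher and 0 lower, with a summed level of 1330 to 2226 CPM in WT and 5368 to 6144 CPM in KO. The collagen genes COL1A1 and COL3A1, both called, were at 602.3 and 68.8 CPM in WT and 3524 and 838.6 CPM in KO. The collagen gene COL1A2 was at 955.7 CPM in WT and 1014 CPM in KO and was not called (log2 FC 0.07, adjusted p = 0.903). Of 5 smooth muscle markers 2 were higher, TAGLN (943.3 CPM in WT, 3542 in KO) and DES (2.01 and 174.1 CPM). TAGLN alone carried most of the summed level of 877 to 1157 CPM in WT and 3786 to 3793 CPM in KO. ACTA2 (37.05 and 32.78 CPM), CNN1 (34.4 and 40.5 CPM) and MYH11 (0.63 and 0.28 CPM) were not called. Neural crest markers were higher in 3 of 6 (1.24 to 4.61 against 62.4 to 80.8 CPM) and simple epithelium markers in 3 of 6 (342 to 599 against 1326 to 1502 CPM). PAX3 held most of the first sum in KO and KRT8 and KRT18 most of the second, while the epithelial genes EPCAM and CDH1 were not called, at 2.22 and 0.14 CPM in KO. Of the pluripotent markers 1 of 4 was lower, endothelium markers gave 1 higher and 1 lower of 3, and endoderm markers 0 of 2. Of the embryonic kidney markers 1 was higher and 1 lower of 4. The part of these shifts in the values of IGF2, IGF2R, IGFBP4 and IGFBP7 was not tested. In bulk RNA a change in the share of a cell type and a change in RNA per cell cannot be told apart.

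The same comparison in HEK293T cells gave 0 called members of 9, where 0.489% of the 19018 genes tested were called, 0.478% higher and 0.0105% lower. With DESeq2 and with voom the count was also 0, and 1 member, IGFBP7, had an unadjusted p below 0.05, as had 7.12% of all genes. The median log2 FC of the members was 0.92 against 0.01 over all genes. This median is the value of IGF2, a gene of few counts here, which fell as low as 0.47 with a library left out. IGF1R, IGF2R and IGFBP2, the members with the highest CPM, had log2 FC of -0.06, -0.19 and -0.25. S18 was the highest library for 6 of the 9 members, so the median does not show a shift of the axis. KO and WT libraries did not overlap for IGFBP4 and IGFBP7, 2 of 9 members, and for 12.6% of all genes, 7.07% with KO higher and 5.5% with KO lower.

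HEK293T cells held little of either ligand. IGF2 had 19, 41 and 29 counts in WT libraries and 68, 45 and 38 in KO libraries, 1.007 ± 0.392 against 1.91 ± 0.898 CPM (SD, n = 3). The groups overlapped in CPM, with the highest value in S18 (2.95 CPM), and the log2 FC was 0.92 (SE 0.43, adjusted p = 0.717).

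Both receptors were expressed. IGF1R was at 53.6, 47.3 and 50.8 CPM in WT and 34.7, 50.5 and 60.1 CPM in KO, a log2 FC of -0.06 (SE 0.19, adjusted p = 0.963) that became 0.13 without S18. IGF2R was at 128, 153 and 156 CPM in WT and 123, 124 and 136 CPM in KO, a log2 FC of -0.19 (SE 0.13, adjusted p = 0.817). For both receptors the WT and KO ranges overlapped.

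IGFBP2 was the binding protein with the most counts in HEK293T cells, at 140, 87.9 and 104 CPM in WT and 90.9, 102 and 85.8 CPM in KO (log2 FC -0.25, SE 0.18, adjusted p = 0.820). IGFBP5 followed, at 7.19, 17.7 and 7.998 CPM in WT and 20.03, 14.5 and 11.1 CPM in KO (log2 FC 0.48, SE 0.34, adjusted p = 0.818). Both genes overlapped between the genotypes. IGFBP4 was at 1.99, 0.448 and 1.72 CPM in WT and 3.77, 2.38 and 2.08 CPM in KO, a log2 FC of 0.98 (SE 0.49, adjusted p = 0.727).

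IGFBP3 and IGFBP6 were near the floor. IGFBP3 had 2, 3 and 4 counts in WT and 7, 3 and 7 in KO, a KO to WT ratio of 2.03 with a 95% counting interval of 0.855 to 5.16. IGFBP6 had 16, 7 and 13 counts in WT and 46, 7 and 19 in KO, the 46 in S18, a ratio of 2.15 with a counting interval of 1.42 to 3.3. Its log2 FC of 1.23 (SE 0.70, adjusted p = 0.771) was 0.17 without S18.

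IGFBP7 rested on 1 library. It had 4, 6 and 4 counts in WT and 62, 7 and 9 in KO, the 62 in S18, and its log2 FC of 2.72 (SE 0.92, adjusted p = 0.518) was 0.77 without S18. The part of whatever sets S18 apart in the KO values of these genes was not tested. Markers of every cell type list gave 0 calls in HEK293T cells, where 0.489% of all genes tested were called. This 0 is near the background and no result about the markers.

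An interaction term over all 10 libraries asked whether the KO acted on the members differently in NPCs and HEK293T cells. The effect was larger in NPCs for 2 of 9 members, IGF2 and IGF2R, and smaller for 0, where 6.01% of 19255 genes were called higher, 6.22% lower and 12.2% in either direction. The log2 difference of the effects was 5.90 for IGF2 (SE 0.51, adjusted p = 2.29e-05) and 1.45 for IGF2R (SE 0.20, adjusted p = 0.000483). For IGFBP4 it was 1.003 (SE 0.56, adjusted p = 0.258), which became 1.42 (adjusted p = 0.0326) and was called without HEK293T WT library S16. For IGFBP7 it was 1.32 (SE 1.22, adjusted p = 0.525), and 3.22 (adjusted p = 0.00114), called, without S18. Thus the calls in NPCs for IGFBP4 and IGFBP7 were not shown to differ from HEK293T cells when all libraries were kept. The other 5 members tested had differences of -0.12 to 0.46, with standard errors of 0.25 to 1.08.

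WT NPCs were then set against WT HEK293T cells, a comparison in which cell type and count table cannot be told apart. Of 9 members 6 were higher in NPCs and 0 lower, where 25.2% of 19255 genes were called higher, 15.5% lower and 40.7% in either direction. An unadjusted p below 0.05 was reached by 7 of 9 members and 61% of all genes. Libraries did not overlap, with NPCs higher, for all tested members except IGFBP6 and for 39.3% of all genes, or 72.5% in either direction. The median log2 FC was 2.23 over the members and 0.12 over all genes. IGF2 was higher by a log2 FC of 2.23 (SE 0.36, adjusted p = 0.000201), and this call used the same WT NPC libraries as the KO comparison.

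Of the 6 calls, 5 were binding proteins. IGFBP3 had 3588 counts in all in the WT NPC libraries and 9 in the WT HEK293T libraries, a depth-adjusted ratio of 873 with a 95% counting interval of 459 to 1910 (adjusted p = 5.65e-09). Counting intervals and floors cover counting error alone, since reads carry no molecular identifiers. IGFBP7 followed with a log2 FC of 4.58 (SE 0.82, adjusted p = 0.000446) and IGFBP4 with 4.46 (SE 0.41, adjusted p = 1.88e-06). IGFBP5 was higher by 3.54 (SE 0.40, adjusted p = 1.18e-05) and IGFBP2 by 1.80 (SE 0.17, adjusted p = 2.70e-06), both on the log2 scale. Without NPC library S3 the value of IGFBP5 was 2.86, and without S5 that of IGFBP3 was 9.09 in place of 9.72, both still called. IGFBP6 showed a log2 FC of 0.14 (SE 0.81, adjusted p = 0.897).

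Neither receptor was called between the cell types. IGF1R had a log2 FC of 0.87 (SE 0.26, adjusted p = 0.0112), below the FC threshold with all libraries and 1.27, called, without NPC library S3. IGF2R had 0.28 (SE 0.14, adjusted p = 0.0993).

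Levels of different genes were compared per length, as TPM, counts divided by gene length and scaled to the library, with the union of a gene's exons as its length. In HEK293T WT cells the order was IGFBP2 at 90.4 TPM, IGF2R at 25.05, IGF1R at 14.1, IGFBP5 at 6.64, IGFBP4 at 2.42, IGFBP6 at 1.16, IGF2 at 0.550, IGFBP7 at 0.319, IGFBP3 at 0.0864 and IGF1 at 0. Neighbours from IGFBP4 to IGFBP7 in this order overlapped in their ranges over libraries. HEK293T KO cells had the same leading genes, with IGFBP2 at 78.7, IGF2R at 22.6, IGF1R at 14.1, IGFBP5 at 9.32 and IGFBP4 at 4.92 TPM. Of these, IGF1R and IGFBP5 overlapped. The rest, at 2.79 TPM for IGFBP6, 2.12 for IGFBP7, 1.05 for IGF2 and 0.189 for IGFBP3, overlapped from IGFBP4 through IGF2.

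WT NPCs led with IGFBP2 at 364.0 TPM, followed by IGFBP3 at 88.8, IGFBP5 at 87.4 and IGFBP4 at 62.2. These last 3 overlapped in order. IGF2R at 35.2 and IGF1R at 30.0 TPM also overlapped. IGFBP7 at 9.04, IGF2 at 2.998 and IGFBP6 at 1.502 TPM did not overlap their neighbours. In KO NPCs IGF2 took the second rank with 305.0 ± 40.5 TPM (SD, n = 2), overlapping IGFBP2 at 321.4 ± 11.8 TPM (SD, n = 2). IGFBP4 followed at 226.3, IGFBP3 at 149.8 and IGFBP7 at 131.2 TPM, the last pair overlapping. IGFBP5 was at 111.7, IGF2R at 77.7, IGF1R at 29.3 and IGFBP6 at 4.44 TPM, and none of these overlapped its neighbours. With the canonical transcript as length IGF2 was again second in KO NPCs, at 212.1 TPM, but lay below IGFBP2 at 585.0 TPM without overlap. That length also changed other ranks in KO NPCs. IGFBP3 at 142.1 TPM then stood above IGFBP4 at 122.9 TPM and IGF2R at 67.8 TPM above IGFBP5 at 62.8 TPM, and both pairs overlapped, whereas IGFBP7 at 96.3 TPM no longer overlapped IGFBP3. In WT NPCs the order was kept, but IGFBP4 and IGF2R overlapped and IGF2R and IGF1R did not, and in HEK293T WT cells IGFBP6 and IGF2 no longer overlapped.

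The make-up of the binding protein transcripts was taken in each library. IGFBP2 contributed 89.1 ± 3.66% (SD, n = 3) of the summed TPM of the 6 IGFBPs in HEK293T WT cells and 80.3 ± 7.94% (SD, n = 3) in KO cells, and these ranges overlapped. In NPCs it contributed 59.3 ± 3.04% (SD, n = 2) in WT and 34.1 ± 1.65% (SD, n = 2) in KO, without overlap. The share of IGFBP4 was 10.2% in WT and 24.0% in KO NPCs, and that of IGFBP7 1.47% and 13.9%. IGFBP3 had 14.3% and 15.8%, IGFBP5 14.4% and 11.8%. These shares were not tested. With the canonical transcript as length, an alternative chosen after seeing the data, the share of IGFBP2 was 96.2%, 92.3%, 79.1% and 57.8% in the same order of groups. In WT and KO NPCs the share of IGFBP4 was then 4.09% and 12.1%, that of IGFBP7 0.789% and 9.52%, that of IGFBP3 9.84% and 13.99%, and that of IGFBP5 6.04% and 6.18%. The union of exons of IGFBP2 is 4742 bases and its canonical transcript 1414.

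**Figure D3:**
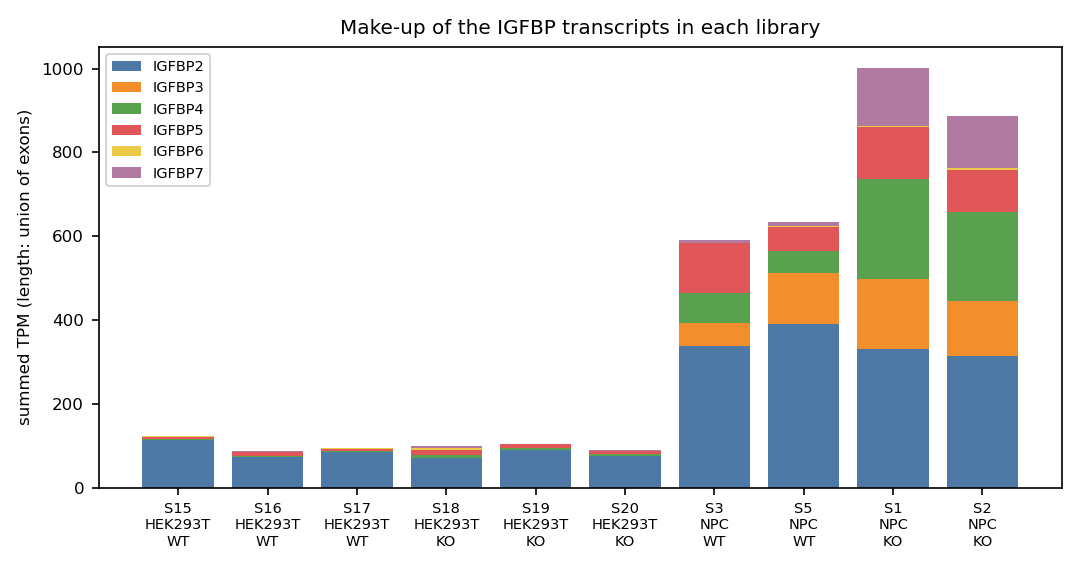
Summed TPM of the 6 IGFBPs in each library, stacked by gene, with the union of exons as length. The sum was 613 ± 30.3 TPM in WT NPCs and 944.5 ± 79.9 TPM in KO NPCs, against 101 ± 19.01 and 98.0 ± 7.87 TPM in HEK293T WT and KO cells (SD). With the canonical transcript as length the sums in NPCs were 833.2 and 1013 TPM.

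Around the members, a list of 36 further genes of the pathway was examined by role. In NPCs 32 were tested, of which 7 were higher and 3 lower in KO, with a median log2 FC of 0.32. Over all genes 8.45% were called higher and 8.36% lower. An unadjusted p below 0.05 in edgeR's quasi-likelihood test was reached in NPCs by 24 of the 32 and by 40.3% of all genes. In HEK293T cells 29 were tested and 0 called, and 2, STC1 and AKT2, had an unadjusted p below 0.05 in edgeR's quasi-likelihood test. Across all genes tested there, 0.489% were called and 7.12% had such a p, so both counts are near the background. STC1 had 0 counts in WT and 1, 3 and 6 in KO HEK293T libraries, and the kinase gene AKT2 a log2 FC of -0.62 (adjusted p = 0.212). INS, IGFALS and AIRN were not analysed here.

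Genes that control the cleavage of binding proteins had the most calls in NPCs, 4 of 5 higher and 0 lower. PAPPA, the metalloprotease that cuts IGFBP4, was at 74.8 and 188 CPM in WT and 586 and 585 CPM in KO (log2 FC 2.14, adjusted p = 0.00605). STC1 and STC2 encode stanniocalcins, secreted inhibitors of PAPPA. STC1 was at 1.38 and 0.922 CPM in WT and 173 and 87.5 CPM in KO, a log2 FC of 6.79 (adjusted p = 0.000106). STC2 was at 10.6 and 6.66 CPM in WT and 67.6 and 81.9 CPM in KO (log2 FC 3.09, adjusted p = 0.000236). HTRA1, a secreted serine protease, was at 9.17 and 11.1 CPM in WT and 75.9 and 47.4 CPM in KO (log2 FC 2.59, adjusted p = 0.000585). The protease and its inhibitors thus rose in the same libraries as IGFBP4.

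Of the 6 adaptors 1 was higher and 1 lower in KO NPCs. IRS4, an insulin receptor substrate, fell from 21.1 and 15.3 CPM to 0.547 and 1.19 CPM (log2 FC -4.38, adjusted p = 0.000402). GRB14, an inhibitory receptor adaptor, had a log2 FC of 1.04 (adjusted p = 0.0108). None of the 8 genes of the PI3K-AKT branch was called in NPCs, and none of the 3 IGF2 mRNA-binding proteins or the 2 activators of IGF2 transcription. IGFBPL1, a protein related to the IGFBPs, was at 44.2 and 132 CPM in WT and 13.4 and 15.5 CPM in KO (log2 FC -2.63, adjusted p = 0.00632).

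Listed genes of the region around IGF2, some of them over 500 kb away, gave 2 higher and 1 lower of 5 tested. No gene listed for the region of IGF2R was tested. PHLDA2, an imprinted growth-restraining gene, rose from 2.14 and 3.43 to 25.2 and 29.4 CPM (log2 FC 3.28, adjusted p = 0.000306). CDKN1C, an imprinted cell cycle inhibitor, fell from 22.4 and 15 to 7.16 and 7.75 CPM (log2 FC -1.34, adjusted p = 0.00727). IGF2-AS had 0 counts in both WT NPC libraries and 18 and 13 in KO, at least 5.04-fold higher (adjusted p = 0.0157). Its exons overlap those of IGF2, and the strand setting of the counting is not given in the sources used here, so reads of both genes may not be separated. H19 had 0 counts in WT and 4 and 6 in KO NPCs and was not called (adjusted p = 0.0884).

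**Figure D4:**
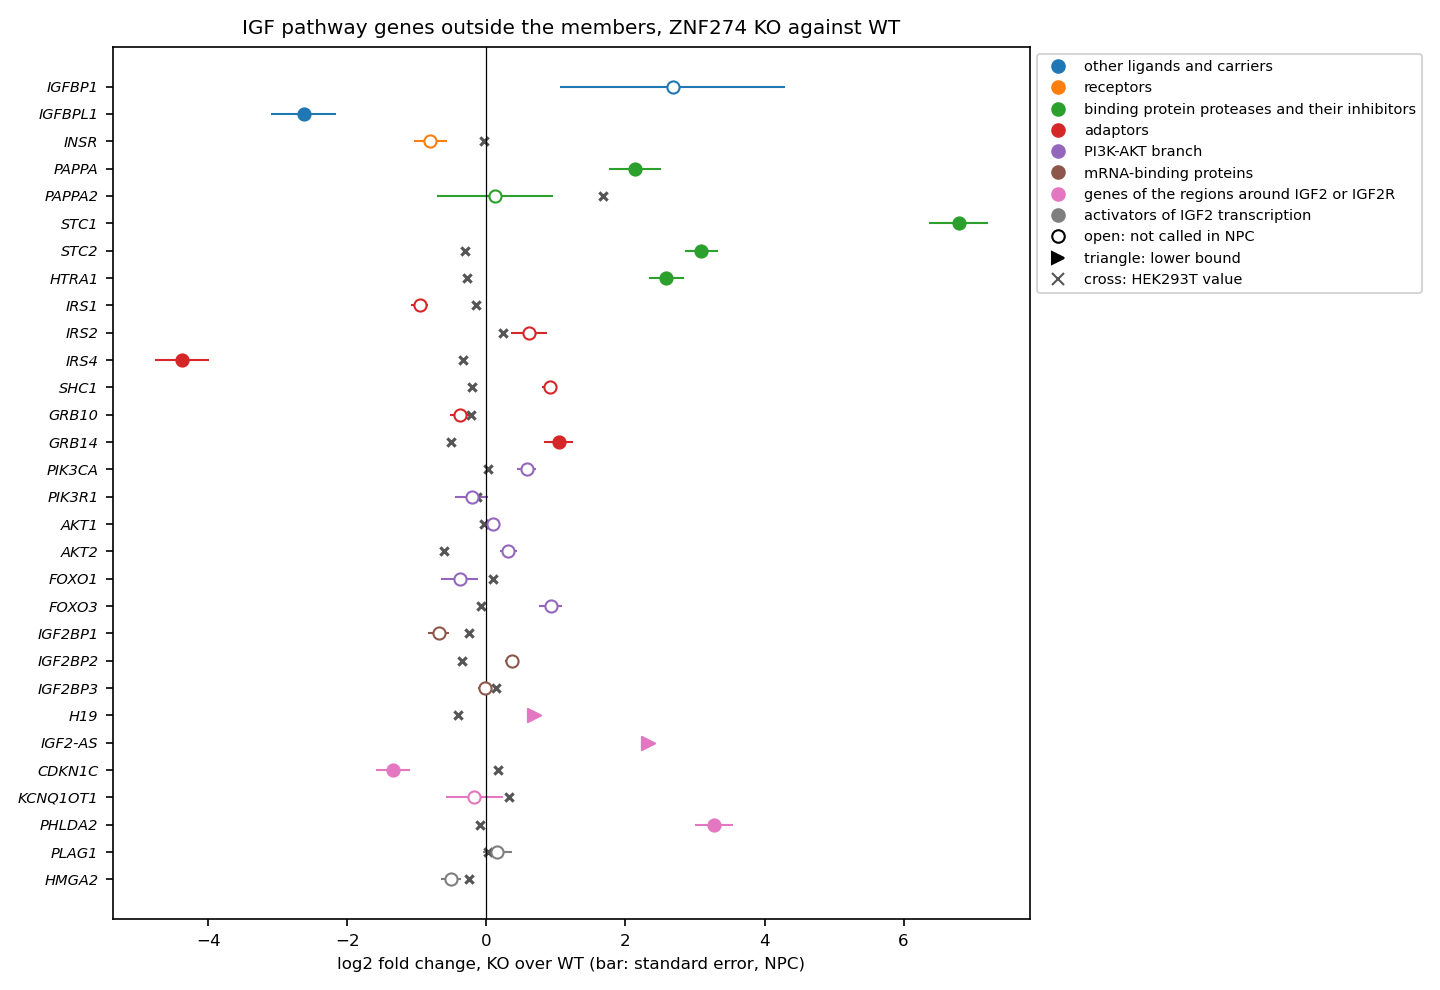
Log2 fold change, KO over WT, of pathway genes tested in NPCs (points, with bars for the standard error), colored by role, with HEK293T values as crosses. Filled points were called in NPCs, and triangles mark lower bounds for genes with 0 counts in WT. The 4 filled green points are PAPPA, STC1, STC2 and HTRA1, from 2.14 to 6.79.

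Between the WT groups, 31 pathway genes were tested, of which 15 were higher and 5 lower in NPCs, where 25.2% of all genes were called higher and 15.5% lower. PAPPA and IGFBPL1 had 0 counts in every HEK293T library and were at least 1300-fold and 871-fold higher in WT NPCs. The adaptor IRS1 was higher by a log2 FC of 5.30 (adjusted p = 9.72e-09) and IRS4 lower by -4.20 (adjusted p = 1.51e-07). HEK293T WT libraries held 322.9 to 351.5 CPM of IRS4 and 4.05 to 5.30 CPM of IRS1. SHC1 (log2 FC 2.80) and the IGF2 activator HMGA2 (log2 FC 3.21) were also higher in NPCs, as were PIK3CA (1.17), PIK3R1 (1.17) and AKT1 (1.03) of the PI3K-AKT branch. Higher too were IGF2BP2 (1.08), IGF2BP3 (1.79), CDKN1C (3.10) and STC1, at least 11.3-fold. PAPPA2 was called on few counts, 32 and 4 in WT NPC libraries and 0, 2 and 0 in WT HEK293T libraries. Lower were the insulin receptor INSR (-1.04), STC2 (-3.28), the transcription factor FOXO3 (-1.49) and H19, at least 1.97-fold.

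Genes within 500 kb of IGF2 were listed next, a window chosen after seeing the data. In NPCs 4 of 14 neighbours were higher in KO and 0 lower, against 8.45% called higher over all genes. These were IGF2-AS, LSP1, TNNT3 and TH, all with few counts. LSP1, a leukocyte protein gene, had 4 and 2 counts in WT and 29 and 24 in KO, and TNNT3, a fast skeletal muscle troponin, 0 and 1 against 24 and 34. TH, encoding tyrosine hydroxylase and starting 13.4 kb from IGF2, had 0 and 0 against 22 and 8. None of the 12 neighbours tested in HEK293T cells was called, where 0.489% of all genes were. Near IGF2R and IGFBP7, 0 of 8 neighbours each were called in NPCs, where 16.8% of all genes were called in either direction. For so few genes these counts of 0 are near the background and no result about the neighbours.

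Genes whose log2 CPM followed those of a member over the 10 libraries were taken from 10793 genes with a mean of at least 10 CPM in a group. Closest to IGF2 were PMP22 (Pearson r 0.990) and ARF4 (0.988). For IGFBP7 they were MSRB3 (0.995), WIPI1 (0.992) and VPS37A (0.990). IGF1R came with lower values, for DCUN1D3 (0.958), ARHGAP26 (0.954) and WEE1 (0.954). The 10 points share their cell type and genotype groups, so these values describe the pattern only.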

How the data were processed

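RNA-seq counts of 10 libraries were used. The authors mapped stranded mRNA reads to hg19 with HISAT2, counted unique reads with featureCounts on genes and transposable elements, and deposited raw counts per gene for each cell type. Tool versions are not given in the sources used here. Of 24050 Ensembl identifiers, 23273 were found in GENCODE lifted to hg19. Genes with a total count of at least the number of libraries were tested with edgeR 4.0.16 in R 4.3.3 (TMM, quasi-likelihood test, Benjamini-Hochberg), each cell type alone. The cell type and interaction comparisons used one fit over all 10 libraries and shared genes. Standard errors were calculated back from the test statistic. Tests were tried on simulated data. Alternatives were DESeq2 1.42.0, voom in limma 3.58.1 (the method of the study), other scalings, filters and thresholds, and each library left out in turn. TPM used the genes of each table. The members and lists were chosen with earlier results of these data known. Named were ZNF274, all members, every pathway gene called in any comparison, those that counts of 5 or fewer turn on, at most 4 markers per list by level (SOX1 and HES5 were added as defining markers near 0), and for IGF2, IGFBP7 and IGF1R the 3 most correlated genes. A few genes that this rule names are not reported here. Neighbours of IGF2 were named after their values were seen. Transposable elements were not analysed here.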

Additional observations from a re-analysis of the deposited data

Results flagged for a closer look

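For the genes below, the effect of the ZNF274 KO differed between NPCs and HEK293T cells by a test of the difference itself, the interaction term over all 10 libraries. All values are log2 differences, NPC minus HEK293T. Among the members the difference was 5.90 for IGF2 and 1.45 for IGF2R. Of the pathway genes, STC2 had 3.42 (adjusted p = 0.00104) and HTRA1 2.88 (adjusted p = 0.0003), both of the group that controls cleavage of binding proteins. Among adaptors the values were -4.02 for IRS4 (adjusted p = 7.78e-05), 1.13 for SHC1 (adjusted p = 0.00449) and 1.56 for GRB14 (adjusted p = 0.0183). FOXO3 had 1.02 (adjusted p = 0.0108). Of the listed genes of the wider IGF2 region, PHLDA2 had 3.40 (adjusted p = 0.00323) and CDKN1C -1.49 (adjusted p = 0.0348). H19 had a fitted difference of 6.04 (adjusted p = 0.0458), which depends on the prior count, since it had 0 counts in both WT NPC libraries and 4 and 6 in KO. The part of the shifted marker genes in KO NPCs in these differences was not tested.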

How the results depend on the processing

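Each of the 12 calls on members over the 4 comparisons held under every alternative in which it was scored, 202 values in all. A member removed by a filter, or a called member left without an adjusted P value, was not scored. Of 583 member values under an alternative, 551 kept direction and side of the threshold, 7 passed it newly, 0 lost it and 25 changed sign, none of them called. With library size alone, under which the all-gene median was -0.13 in place of -0.02 in NPCs, 0.0977 in place of 0.0106 in HEK293T cells and -0.24 in place of -0.03 for the interaction, the log2 FC of IGF1R became 0.024 in HEK293T cells, -0.034 in NPCs and -0.058 for the interaction, and that of IGFBP2 -0.029 for the interaction. With voom the interaction became 0.000897 for IGFBP5 and 0.13 for IGFBP3. The cause was not tested.

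Leaving out each library in turn, the log2 FC of IGF1R ranged from -0.24 to 0.13 in HEK293T cells and from -0.32 to 0.63 in NPCs, that of IGFBP5 in NPCs from -0.030 to 1.11, and that of IGFBP6 between WT groups from -0.28 to 0.47. For the interaction the ranges were -0.25 to 0.70 for IGF1R, -0.017 to 0.33 for IGFBP2, -0.58 to 0.49 for IGFBP3, -0.55 to 0.66 for IGFBP5 and -0.068 to 1.53 for IGFBP6. IGF2 in NPCs stayed between 6.46 and 7.16 and IGF2R between 1.10 and 1.40. Members called higher in NPCs numbered 4 to 6.

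Genes called in all moved by over 1.5 times in some fits. In HEK293T cells they were 93, with 164 by DESeq2, 61 at an adjusted p below 0.01 and 44 to 116 with a library left out (57 without S15, 44 without S16, 61 without S17). In NPCs they were 3459, with 5888 without a fold threshold, 2225 at the stricter p and 2084 without S1. For the interaction they were 2354, with 1224 at the stricter p, 1455 without S1 and 1531 without S2.

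No paired analysis was possible because the labels share no replicate numbers between groups. With 2 NPC libraries per group, a fit without one assumes that the lone library varies like the others. Depth limits IGF1, IGFBP6 and, in HEK293T cells, IGFBP3 and IGFBP7.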

Other observations

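Neighbours of the other members were counted in the same 500 kb window. In NPCs, 4 of 26 genes near IGFBP6 were higher in KO and 1 lower, 1 of 21 near IGFBP4 was higher and 2 lower, and 1 of 6 near IGF1R was higher. Near IGFBP2 and IGFBP5, whose windows overlap, 2 of 8 were higher for each. None of 5 genes near IGF1 and none of 4 near IGFBP3 was called. Across all genes tested in NPCs, 16.8% were called. In HEK293T cells 0 neighbours of any member were called, where 0.489% of all genes were, so this 0 is near the background and no result about the neighbours.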
